A study of Mus musculus with 35 samples.

Results

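The mRNA levels of 10 genes that neurons switch on with activity, or that act at the synapse downstream of it, were followed in the mouse hippocampus after pilocarpine-induced status epilepticus (SE). The genes are Npas4, Arc, Plk2, Rgs2, Rgs4, Nptx1, Nptx2, Nptxr, Pcdh8 and Nrn1. They were taken by symbol from the mRNA-seq count table, which lists 43629 Ensembl gene identifiers, and all 10 were found and passed the filter on low counts at every time. C57BL/6J mice of both sexes, 6 to 7 weeks old, received scopolamine and then pilocarpine (350 mg/kg in the first injection, with further injections until seizures were seen) or saline vehicle, and the left hippocampus was sequenced. There were 3 SE and 2 control libraries at 1 h, 2 SE and 3 control libraries at 8 h, 3 SE libraries at 36 h and 3 SE libraries at 120 h. The last 2 times shared 3 control libraries, whose source name gives both times and whose title gives neither of them. The time at which these controls were taken is therefore not certain. All animals were wild type, and scopolamine was given to vehicle mice too. SE denotes a mouse that was injected with pilocarpine and sampled at the stated time. The hippocampus was taken whole, so that fewer cells of a type and less RNA per cell cannot be told apart.

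Neuronal firing opens calcium entry at the synapse, which signals to the nucleus and starts a short programme of immediate early genes, followed by effector genes that act back on synapses. Npas4 is an activity-dependent transcription factor of excitatory and inhibitory neurons. Arc is a dendritic protein that drives endocytosis of AMPA-type glutamate receptors, Plk2 is a kinase that weakens synapses after prolonged activity, and Pcdh8 (arcadlin) is a protocadherin of the synaptic membrane. Nptx1 and Nptx2 are secreted pentraxins that cluster AMPA receptors, Nptxr is their membrane-bound relative, and Nrn1 (neuritin) is a lipid-anchored growth factor of axons and dendrites. Rgs2 and Rgs4 shorten signalling by Gq- and Gi-coupled receptors, among them the muscarinic receptors on which pilocarpine acts.

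Depth ranged from 8503816 to 28465548 counts per library. Values are given as CPM, counts relative to a library size that was scaled by TMM over the 19 libraries. The least abundant of the 10 genes, Npas4, had 72 to 6901 counts per library. A batch here is the code that opens a library's title, and the titles do not say what this code stands for. The 1 h libraries came from 2 such batches, each with SE and control mice. At 8 h, control replicate 1 came from another batch than the remaining 4 libraries. All libraries of 36 h and 120 h shared a batch. Xist, the sex-linked RNA used as a covariate, did not pass the filter on low counts in the 36 h comparison. In the fit of all libraries its level in 120 h SE libraries exceeded that in 36 h SE libraries by 14.9 on the log2 scale. The sexes were therefore not evenly spread over the groups. Markers of choroid plexus epithelium, a tissue next to the hippocampus, differed widely between libraries: their summed level ran from 59.6 to 7191 CPM in 36 h SE libraries and from 61.1 to 6528 CPM in 120 h SE libraries, against 58.8 to 128 CPM in the controls of those times. It was 3435 to 5597 CPM in 1 h SE libraries, against 2636 to 3160 CPM in 1 h controls, and 3253 to 3317 CPM in 8 h SE libraries, against 455 to 3924 CPM in 8 h controls. Neuronal markers (Rbfox3, Snap25, Syt1, Tubb3 and Stmn2) were present in every library, at a summed 3732 to 6379 CPM. Of the 14 marker lists, a few had summed levels that did not overlap between SE and control libraries. At 1 h these were choroid plexus, as given, and CA2 and CA3 pyramidal cells, at 91 to 98.2 CPM in SE libraries, against 78.4 to 84.4 CPM in controls. At 8 h CA2 and CA3 markers were again above, at 107 to 108 CPM in SE libraries, against 82.9 to 90.4 CPM in controls. Those of oligodendrocytes (5571 to 6737 CPM, against 7149 to 8002 CPM), of pericytes and smooth muscle (55.5 to 64.3 CPM, against 67.4 to 83.7 CPM) and of neurons (4202 to 4533 CPM, against 5168 to 6379 CPM) were below the 8 h controls. At 36 h every list overlapped. At 120 h neuronal markers were below the controls (4153 to 4234 CPM, against 4341 to 4594 CPM) and neocortical markers above them (132 to 139 CPM, against 121 to 123 CPM). Single genes of a list did not all go with its sum. Log2 fold changes were positive at 1 h for 10 of 10 choroid plexus and 4 of 5 CA2 and CA3 markers. At 8 h they were positive for 3 of 5 CA2 and CA3 markers and 0 of 5 of oligodendrocytes. Of pericytes and smooth muscle 3 of 5 were positive at 8 h, and of neurons 1 of 5. At 120 h this held for 0 of 5 neuronal and 3 of 3 tested neocortical markers. The part of these markers in the results was not tested, except that the choroid plexus score was added as a term in 1 alternative fit.

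RefSeq promoter windows on GRCm38.p6 were held for 5 of the 10 genes: Npas4, Plk2, Pcdh8, Rgs2 and Rgs4. Arc, Nptx1, Nptx2, Nptxr and Nrn1 had no entry. The 250 bases before the start site were searched on both strands for TGACG, the core of the cyclic AMP response element (CRE) through which the activity-regulated factor CREB acts. Npas4, Plk2, Rgs2 and Rgs4 held it, and Pcdh8 did not, against 17.8% of 32851 promoter windows of the same length. Plk2 held the full palindrome TGACGTCA, 55 to 62 bases before its start, which contains TGACG on both strands and was present in 1.55% of all windows. Npas4 held TGACG on the minus strand 175 to 179 bases before its start and on the plus strand 165 to 169 bases before it. The AP-1 site TGANTCA (6.75% of windows) and the serum response element core, the CArG box (1.47% of windows), were found in none of the 5. The windows of Npas4, Plk2 and Pcdh8 are shown because these genes, with Arc, had every 1 h SE library above both 1 h controls. Capitals mark TGACG or its reverse complement. The Npas4 window is chr19:4989972-4990221 (minus strand), that of Plk2 is chr13:110394794-110395043 (plus strand) and that of Pcdh8 is chr14:79771313-79771562 (minus strand).
Npas4: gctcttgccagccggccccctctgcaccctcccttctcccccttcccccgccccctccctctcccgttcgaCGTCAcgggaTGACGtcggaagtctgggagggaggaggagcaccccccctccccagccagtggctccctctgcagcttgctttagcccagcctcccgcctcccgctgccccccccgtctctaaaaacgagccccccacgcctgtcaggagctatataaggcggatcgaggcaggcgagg
Plk2: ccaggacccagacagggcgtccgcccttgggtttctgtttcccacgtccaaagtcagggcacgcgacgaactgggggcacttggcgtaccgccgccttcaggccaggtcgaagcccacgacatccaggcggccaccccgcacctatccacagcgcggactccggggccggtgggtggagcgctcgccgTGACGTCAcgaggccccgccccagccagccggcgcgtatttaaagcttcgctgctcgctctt
Pcdh8: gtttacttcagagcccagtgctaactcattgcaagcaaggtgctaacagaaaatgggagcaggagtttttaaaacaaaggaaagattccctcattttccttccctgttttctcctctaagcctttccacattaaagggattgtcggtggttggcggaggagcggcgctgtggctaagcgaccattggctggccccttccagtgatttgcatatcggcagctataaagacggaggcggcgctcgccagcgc

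In the 8 control hippocampi, the 10 genes spanned a wide range of levels per kb of exon. Nptxr was highest at 207 ± 24.1 CPM per kb (SD, n = 8), followed by Nrn1 at 120 ± 14.6 and Nptx1 at 113 ± 13.8 CPM per kb, and the ranges of Nrn1 and Nptx1 overlapped. Plk2 (74.6 ± 7.8 CPM per kb) and Rgs4 (59.2 ± 8 CPM per kb) came next, and their ranges overlapped as well. Arc had 29 ± 16.3 CPM per kb, the widest spread relative to its mean of the 10 genes, and Npas4 was lowest at 3.32 ± 1.55 CPM per kb. Pcdh8 (11.8 ± 1.69 CPM per kb), Nptx2 (10.5 ± 3.72 CPM per kb) and Rgs2 (10.3 ± 2.92 CPM per kb) lay between Arc and Npas4 in mean level and overlapped each other. The control groups themselves were not alike. Arc had 75.4 to 190 CPM in the 36 h and 120 h controls, above all other controls (54.5 to 71.1 CPM), and Nptx2 had 15.5 to 20.6 CPM in 8 h controls, against 32.3 to 39 CPM in 36 h and 120 h controls. Time, batch and mouse cannot be told apart in these differences between control groups.

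**Figure D1:**
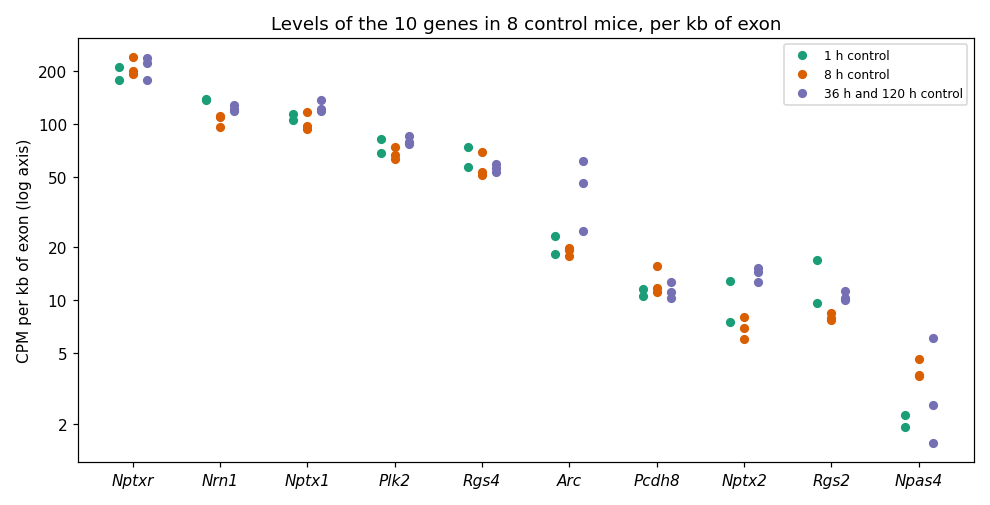
Level of each gene in the 8 control hippocampi, in CPM per kb of exon on a log axis, with genes ordered by their mean and points coloured by control group. Nptxr is highest (207 CPM per kb on average) and Npas4 lowest (3.32 CPM per kb), and Arc points of the 36 h and 120 h controls sit above those of the other controls.

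SE and control mice of each time were set against each other with edgeR (quasi-likelihood test), and a gene passed where its Benjamini-Hochberg adjusted p, taken across every gene in the fit, was under 0.05. None of the 10 genes passed at any of the 4 times. The share of all genes that passed was 0.0799% at 1 h, 0% at 8 h, 0.0252% at 36 h and 0.0563% in the 120 h comparison. An unadjusted p under 0.05 was found for 4 of the 10 genes at 1 h (4.39% of all genes), 3 at 8 h (9.47%), 2 at 36 h (7.89%) and 1 in the 120 h comparison (9.6%). The likelihood ratio test of edgeR passed 2 of the genes at 1 h (0.424% of all genes), 1 at 8 h (0.57%), 0 at 36 h (0.789%) and 1 in the 120 h comparison (0.475%). DESeq2 passed 2 (0.387%), 1 (0.609%), 0 (0.637%) and 1 (0.9%) in the same order. Every SE library lay above every control for 4 genes at 1 h (9.91% of all genes), 5 genes at 8 h (14.6%) and 0 genes at 36 h (6%) and 120 h (6.33%). Every SE library lay below every control for 1 gene at 1 h (8.55%), 1 at 8 h (13.4%), 0 at 36 h (8.28%) and 2 of the genes at the last time (9.1%). The median log2 fold change of the 10 genes at the successive times was 0.32, 0.27, -0.0067 and -0.10, beside -0.0023, -0.0087, 0.0065 and 0.011 for all genes in the fits.

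**Figure D2:**
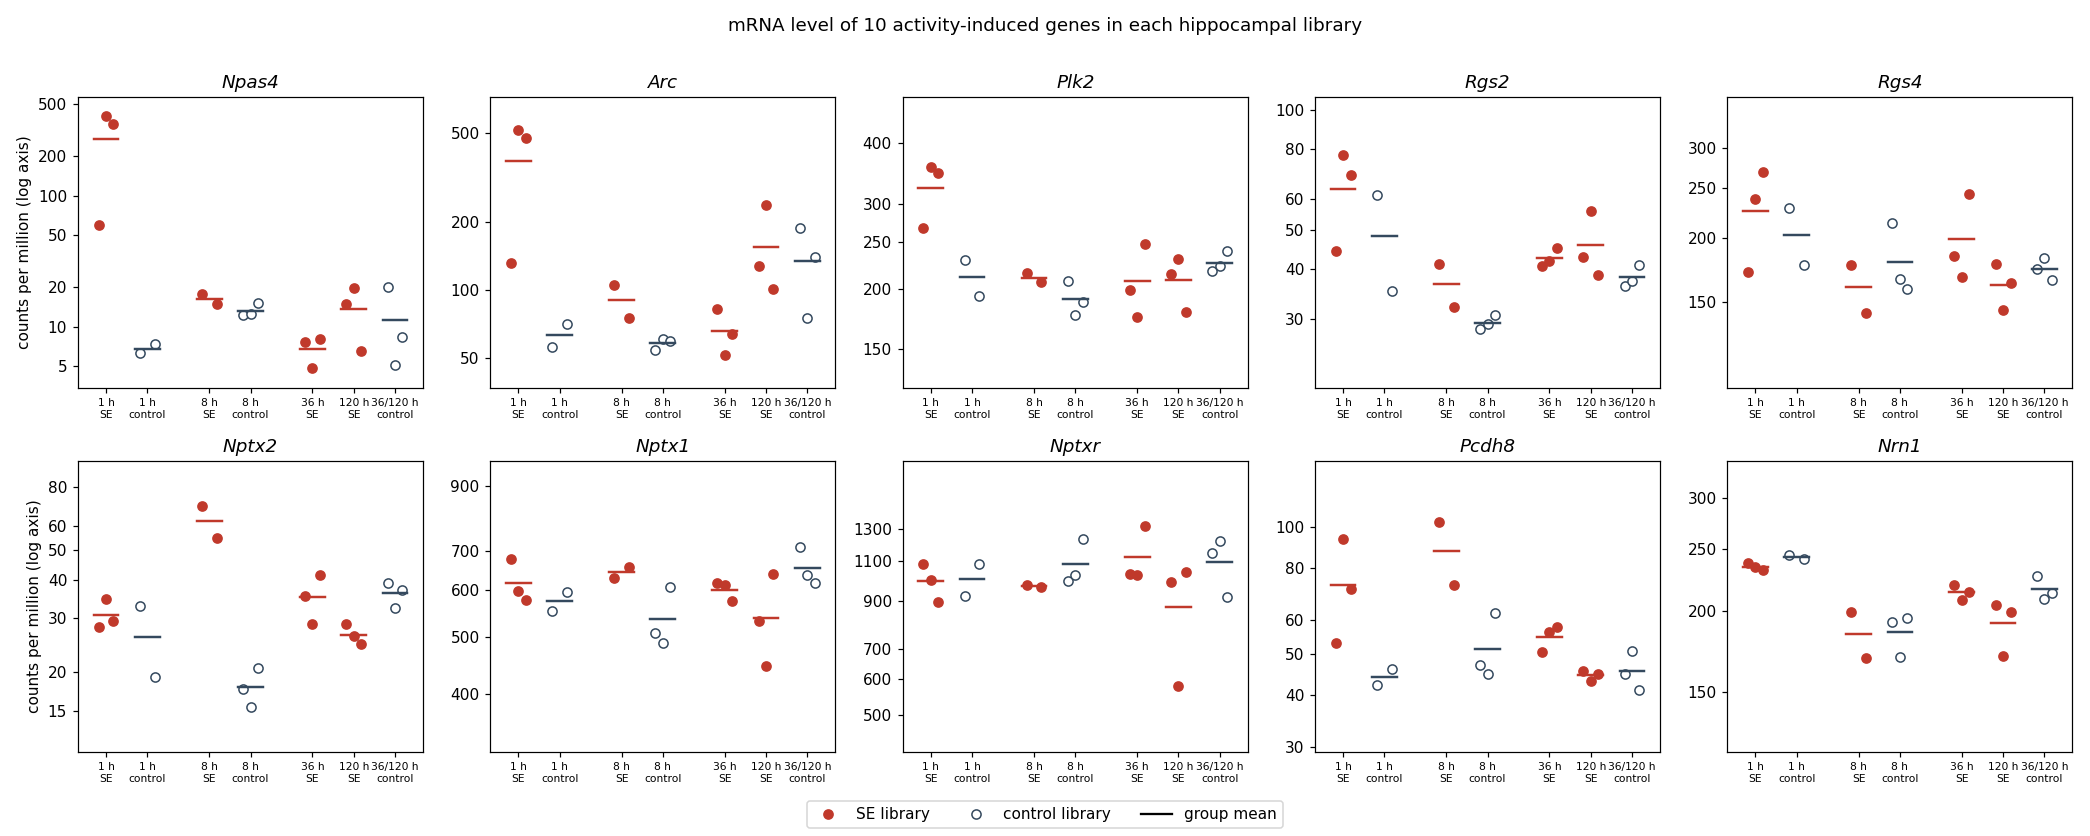
CPM of each gene in every library, on log axes that differ between panels; filled points are SE libraries, open points control libraries, and lines group means, with the controls of 36 h and 120 h shared. At 1 h the 3 SE libraries of Npas4 sit between 60 and 404 CPM, above all 16 other libraries, and at 8 h both SE libraries of Nptx2 (54.8 and 69.7 CPM) sit above all 17 others.

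**Figure D3:**
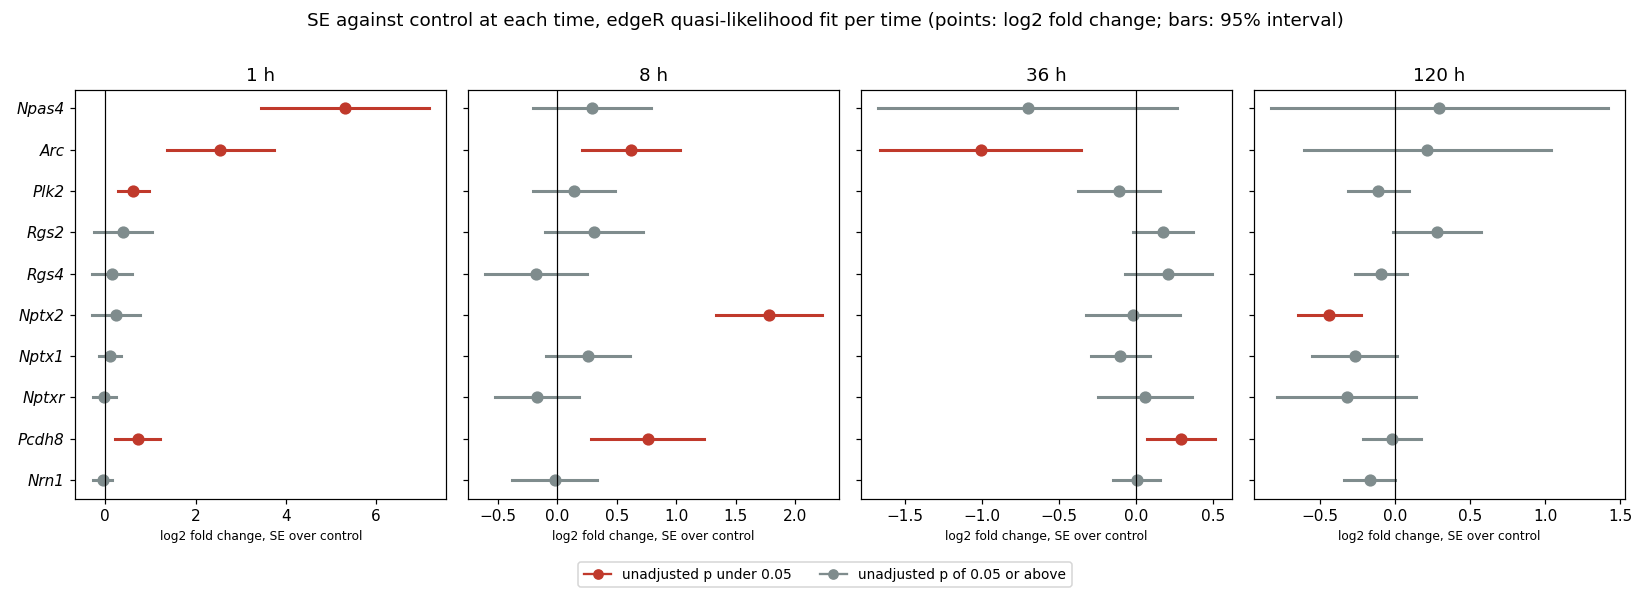
Log2 fold change of SE over control (points) with its 95% interval (bars) from the quasi-likelihood fit at each time; the x axes differ between panels, and red marks an unadjusted p under 0.05. No adjusted p was under 0.05; Npas4 at 1 h is farthest from 0, at 5.32, and Nptx2 at 8 h has the smallest adjusted p, 0.076.

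Npas4 (ENSMUSG00000045903, chr19:4984355-4989971, minus strand, NCBIM37) showed the widest separation. It had 60, 404 and 354 CPM in 1 h SE libraries, against 6.27 and 7.34 CPM in 1 h controls. All 3 SE libraries exceeded not only their own controls but each of the 16 remaining libraries, of which the highest had 20.1 CPM. The log2 fold change was 5.32 ± 0.81 (standard error of the fit; 95% interval 3.46 to 7.18), about 39.9-fold, with an adjusted p of 0.12. SE replicate 1 was far below the other 2, and without it the adjusted p was 5.2e-05. Npas4 did not pass without SE replicate 2 or without SE replicate 3. The likelihood ratio test gave 8.9e-09 and DESeq2 1.3e-05. Within the 2 batches of 1 h, the SE libraries were higher by 4.4 and 5.8 on the log2 scale. At 8 h, Npas4 had 17.9 and 14.9 CPM in SE libraries, against 12.3, 12.4 and 15.2 CPM in controls, with overlapping groups and a log2 fold change of 0.29 ± 0.22 (adjusted p = 0.68). At 36 h it had 7.6, 4.8 and 8.01 CPM in SE libraries and at 120 h 14.9, 19.7 and 6.51 CPM, against 20.1, 5.08 and 8.35 CPM in the shared controls. These groups overlapped, with log2 fold changes of -0.70 (95% interval -1.68 to 0.27) at 36 h and 0.29 (-0.83 to 1.42) at 120 h.

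Arc (ENSMUSG00000022602, chr15:74499513-74503000, minus strand, NCBIM37) had 132, 515 and 473 CPM in 1 h SE libraries, against 56.3 and 71.1 CPM in 1 h controls. The same SE library as for Npas4, replicate 1, was lowest, and it still lay above both controls. The log2 fold change was 2.55 ± 0.52 (95% interval 1.36 to 3.73, adjusted p = 0.36), or 5.85-fold. The adjusted p was 3.8e-04 without SE replicate 1 and 4.4e-04 by the likelihood ratio test. Arc did not pass by DESeq2, nor without SE replicate 2 or without SE replicate 3. The within-batch differences were 1.87 and 3.07 on the log2 scale. At 8 h, Arc had 106 and 75.4 CPM in SE libraries, against 54.5, 60.9 and 59.3 CPM in controls. The groups did not overlap, and the log2 fold change was 0.62 ± 0.18 (adjusted p = 0.47). With the control of the other batch left out, the adjusted p was 0.033, in a fit in which 5.71% of all genes passed upwards. At 36 h, Arc had 82.8, 51.9 and 64.2 CPM in SE libraries, against 190, 75.4 and 141 CPM in the shared controls. The groups overlapped, since SE replicate 1 exceeded control replicate 2. The log2 fold change was -1.01 ± 0.29 (95% interval -1.66 to -0.36; adjusted p = 0.41), and it was -0.69 without control replicate 1, the highest control. At 120 h, SE libraries had 128, 239 and 101 CPM and straddled the same controls (log2 fold change 0.22, 95% interval -0.60 to 1.04).

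Plk2 (ENSMUSG00000021701, chr13:111185252-111191052, plus strand, NCBIM37) had 268, 357 and 348 CPM in 1 h SE libraries, against 229 and 193 CPM in 1 h controls. As for Npas4 and Arc, SE replicate 1 was the lowest of the 3, and all 3 lay above each of the 16 other libraries (174 to 248 CPM). Its log2 fold change was 0.62 ± 0.15 (95% interval 0.28 to 0.96, adjusted p = 0.7), and DESeq2 gave an adjusted p of 0.029. Plk2 did not pass the likelihood ratio test. The within-batch differences were 0.68 and 0.60 on the log2 scale. From 8 h on, Plk2 levels of SE mice and controls overlapped. It had 215 and 207 CPM in 8 h SE libraries, against 207, 177 and 187 CPM in 8 h controls. It had 198, 174 and 248 CPM in 36 h SE libraries and 215, 231 and 179 CPM in 120 h SE libraries, against 217, 223 and 239 CPM in their controls. The 95% intervals of the log2 fold change were -0.21 to 0.48 at 8 h, -0.37 to 0.16 at 36 h and -0.31 to 0.09 at 120 h.

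Rgs2 (ENSMUSG00000026360, chr1:145846468-145851291, minus strand, NCBIM37) had 44.3, 77.2 and 68.9 CPM in 1 h SE libraries, against 61.2 and 35.3 CPM in 1 h controls. SE replicate 1 was again the lowest and lay between the controls (log2 fold change 0.40 ± 0.28, adjusted p = 1 after rounding). At 8 h, 41.1 and 32.1 CPM in SE libraries lay above 28.2, 29 and 30.7 CPM in controls (log2 fold change 0.31 ± 0.18, adjusted p = 0.6), although replicate 2 exceeded the highest control by little. At 36 h Rgs2 had 40.6, 41.7 and 45 CPM and at 120 h 42.9, 56 and 38.6 CPM in SE libraries, against 36.3, 37.3 and 41 CPM in the shared controls. Each of these groups overlapped the controls in a single library, with log2 fold changes of 0.17 (95% interval -0.02 to 0.37) and 0.28 (-0.02 to 0.57).

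Rgs4 (ENSMUSG00000038530, chr1:171671608-171677773, minus strand, NCBIM37) overlapped between SE and control mice at every time. It had 172, 238 and 269 CPM in 1 h SE libraries, against 228 and 177 CPM in 1 h controls, and 177 and 143 CPM in 8 h SE libraries, against 214, 166 and 159 CPM in 8 h controls. At 36 h it had 185, 168 and 243 CPM and at 120 h 178, 145 and 164 CPM in SE libraries, against 174, 183 and 165 CPM in the shared controls. The 95% intervals of the log2 fold change at the successive times ran from -0.29 to 0.60, -0.61 to 0.25, -0.07 to 0.49 and -0.27 to 0.08. At 36 h, SE replicate 3, at 243 CPM, was the SE library with low choroid plexus markers. With a term for the choroid plexus score, the log2 fold change of Rgs4 at 36 h was 0.49 (adjusted p = 0.079), against 0.21 (adjusted p = 0.73) without it. The scores were 5.97, 5.98 and 1.11 in SE replicates 1 to 3 and 1.00 to 1.30 in the controls. The 0.49 thus rests mainly on SE replicate 3. With the other 2 SE libraries left out, an alternative chosen after seeing the data, the log2 fold change was 0.48. That value rests on the same single SE library, so the 2 values are not independent.

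Nptx2 (ENSMUSG00000059991, chr5:145306756-145318347, plus strand, NCBIM37) differed most at 8 h, with 69.7 and 54.8 CPM in SE libraries, against 17.7, 15.5 and 20.6 CPM in controls. Both SE libraries exceeded the highest of the 17 other libraries, which had 41.5 CPM. On the log2 scale the difference was 1.78 ± 0.20 (95% interval 1.33 to 2.23), or 3.44-fold, with an adjusted p of 0.076. The adjusted p was 2.4e-10 by the likelihood ratio test and 2.9e-10 by DESeq2. It was 2.8e-04 without the control of the other batch, in a fit in which 5.71% of all genes passed upwards. With either 8 h SE library left out, leaving a single SE library, Nptx2 did not pass. In both 8 h SE libraries, the summed level of general neuronal markers was below that of all 8 h controls. The summed level of CA2 and CA3 markers was above that of all 8 h controls, with the values given earlier. Summed CA1 markers overlapped (628 to 739 CPM, against 538 to 674 CPM). The part of cell makeup in this difference was not tested. At 1 h, Nptx2 had 28.1, 34.8 and 29.5 CPM in SE libraries, against 32.8 and 19.4 CPM in controls, which enclosed 2 of the 3 SE values. The log2 fold change of 0.24 turned to -0.10 without control replicate 2. At 36 h, the SE libraries (35.4, 28.8 and 41.5 CPM) overlapped their controls (39, 32.3 and 37.2 CPM), with a 95% interval of -0.32 to 0.29. At 120 h, all 3 SE libraries, at 28.7, 26.2 and 24.7 CPM, lay below the same 3 controls. On the log2 scale the difference was -0.44 ± 0.09 (95% interval -0.65 to -0.23; adjusted p = 0.23), with adjusted p of 0.04 by the likelihood ratio test and 0.016 by DESeq2. The lowest value, 24.7 CPM, came from the 120 h SE library with high choroid plexus markers, and without that library the log2 fold change was -0.40. General neuronal markers were also below those of all 3 controls in the 120 h SE libraries, and their part in this difference was not tested.

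Nptx1 (ENSMUSG00000025582, chr11:119400033-119409067, minus strand, NCBIM37) had 629 and 656 CPM in 8 h SE libraries, above the 508, 488 and 608 CPM of the controls (log2 fold change 0.26 ± 0.16, adjusted p = 0.62). At 1 h it had 678, 597 and 578 CPM in SE libraries, against 553 and 595 CPM in controls. At 36 h it had 617, 612 and 574 CPM and at 120 h 532, 447 and 637 CPM in SE libraries, against 710, 637 and 616 CPM in the shared controls. At both late times only 1 SE library reached the range of the controls, and the log2 fold changes were -0.10 (95% interval -0.30 to 0.09) and -0.27 (-0.55 to 0.01).

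Nptxr (ENSMUSG00000022421, chr15:79616783-79635196, minus strand, NCBIM37) had 1085, 1000 and 895 CPM in 1 h SE libraries, against 923 and 1085 CPM in 1 h controls. At 8 h both SE libraries, at 977 and 965 CPM, lay below the controls at 998, 1028 and 1237 CPM (log2 fold change -0.17 ± 0.16, adjusted p = 0.72). At 36 h it had 1032, 1029 and 1317 CPM and at 120 h 988, 580 and 1042 CPM in SE libraries, against 1148, 1221 and 916 CPM in the shared controls. The 580 CPM of 120 h SE replicate 2 was the lowest of all 19 libraries. Without it the log2 fold change at 120 h was -0.10, against -0.32 (95% interval -0.78 to 0.14) with it. The same library held the highest Arc and Rgs2 and the lowest Nptx1, Nrn1 and Rgs4 of the 120 h SE libraries. Nptxr overlaps the gene Npcd in the annotation, and reads of the shared part may be counted for neither.

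Pcdh8 (ENSMUSG00000036422, chr14:80166587-80171119, minus strand, NCBIM37) had, like Arc, SE libraries that lay above the controls at both early times. It had 52.9, 93.8 and 71.4 CPM in 1 h SE libraries, against 42.2 and 46 CPM in 1 h controls. It had 103 and 72.7 CPM in 8 h SE libraries, against 47, 44.6 and 62.4 CPM in 8 h controls. The log2 fold changes were 0.72 ± 0.22 at 1 h (adjusted p = 0.98) and 0.76 ± 0.21 at 8 h (adjusted p = 0.47). Without the 8 h control of the other batch the adjusted p at 8 h was 0.031, in a fit in which 5.71% of all genes passed upwards. At 36 h, 50.4, 56.5 and 57.8 CPM in SE libraries stood against 44.7, 50.7 and 41 CPM in controls. Only SE replicate 1 and control replicate 2 overlapped, and the log2 fold change was 0.29 ± 0.10 (adjusted p = 0.49). At 120 h, 45.5, 43.1 and 44.8 CPM in SE libraries lay within the range of the controls, with a 95% interval of -0.21 to 0.17.

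Nrn1 (ENSMUSG00000039114, chr13:36817494-36826346, minus strand, NCBIM37) stayed within a narrow range in SE and control mice, from 170 to 245 CPM over all libraries. It had 238, 234 and 232 CPM in 1 h SE libraries, below the 245 and 242 CPM of the 1 h controls by a log2 difference of only -0.05 (95% interval -0.26 to 0.15). At 8 h it had 200 and 170 CPM in SE libraries, against 193, 170 and 196 CPM in controls, and at 36 h 220, 209 and 215 CPM, against 227, 209 and 214 CPM. At 120 h, 205, 170 and 199 CPM in SE libraries all lay below the controls, with a log2 fold change of -0.17 ± 0.08 (adjusted p = 0.53). The intervals bound any difference at 8 h to between -0.38 and 0.34 and at 36 h to between -0.15 and 0.16 on the log2 scale.

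Whether the difference between SE and control mice itself changed with time was tested in 1 fit of all 19 libraries. From 1 h to 8 h, the SE effect on Npas4 fell by 5.02 ± 0.92 on the log2 scale (95% interval -6.95 to -3.10; adjusted p = 0.036). The SE effect on Nptx2 rose over the same interval by 1.55 ± 0.28 (0.96 to 2.14; adjusted p = 0.036). These were 2 of the 10 genes, where 0.149% of all genes passed. From 8 h to 36 h, the SE effect on Nptx2 fell by 1.83 ± 0.27 (-2.39 to -1.27; adjusted p = 0.012), 1 of the 10 genes, where 0.144% of all genes passed. Part of these Nptx2 differences lay in the controls. Mean Nptx2 was 30.8, 62.2 and 35.2 CPM in SE libraries of 1 h, 8 h and 36 h. It was 26.1 and 17.9 CPM in controls of 1 h and 8 h, and 36.2 CPM in the shared controls. No batch held SE libraries of both 1 h and 8 h. Of the 8 h libraries, only control replicate 1 shared a batch with libraries of 1 h. No batch held libraries of both 8 h and 36 h. The fit of all 19 libraries had no batch term, so time and batch cannot be told apart in these differences. From 36 h to 120 h none of the 10 passed (0.0804% of all genes), and 0 passed by the likelihood ratio test (42 of 17415 genes). Arc had differences of -1.92 (adjusted p = 0.23), -1.66 (adjusted p = 0.22) and 1.24 (adjusted p = 0.72) over the 3 intervals, and Plk2 one of -0.47 (adjusted p = 0.38) over the first. Nptx1 had -0.39 (adjusted p = 0.33) from 8 h to 36 h. From 36 h to 120 h, Nptx2 had -0.41 and Nptxr -0.37 (adjusted p = 1 after rounding for both). The first 2 intervals share the 8 h libraries. The calls of the first interval were sensitive to single libraries. When single libraries were dropped, giving 19 fits, Npas4 passed in 8 fits and Nptx2 in 9, and the adjusted p was highest, at 0.3 for both, without 1 h control replicate 1. The call of Nptx2 from 8 h to 36 h held in 17 of 19 fits, and was lost without 8 h SE replicate 1 (0.09) and without replicate 3 of the shared controls (0.06).

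**Figure D4:**
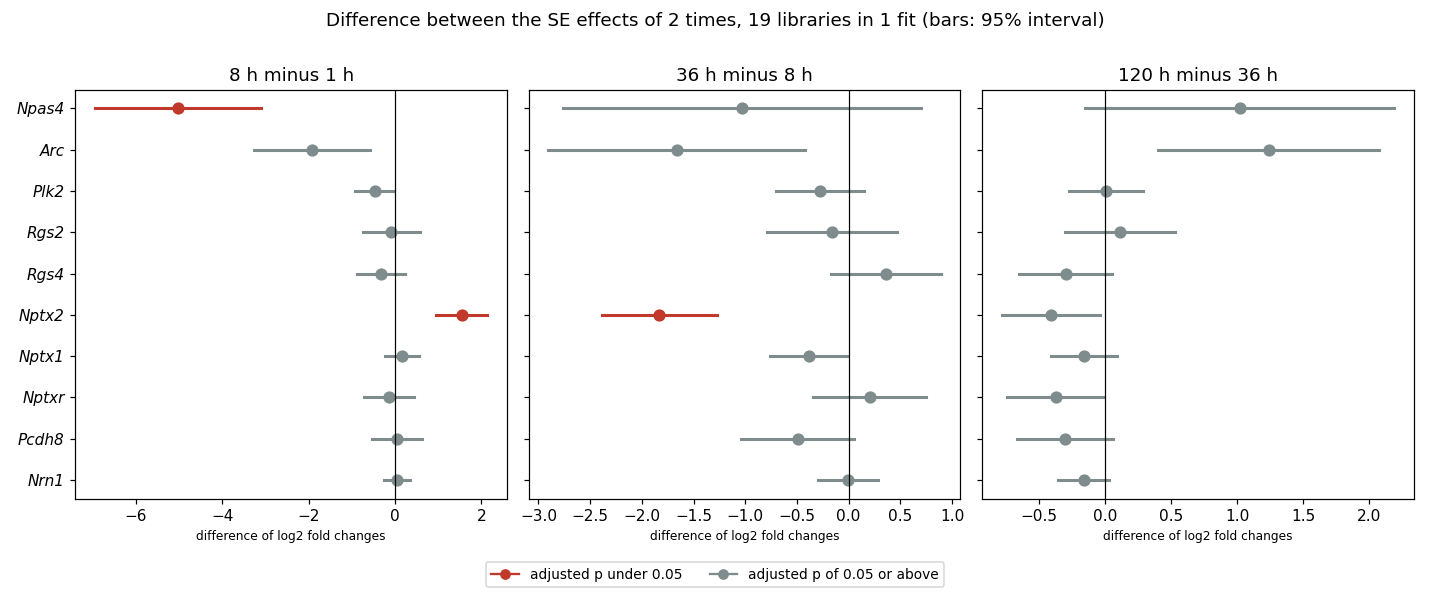
Difference between the SE effects of consecutive times (points, log2 scale) with its 95% interval (bars), from 1 fit of 19 libraries; the x axes differ between panels, and red marks an adjusted p under 0.05. Npas4 lies at -5.02 and Nptx2 at 1.55 in the first panel, and Nptx2 at -1.83 in the second; the other points do not pass.

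Other genes of the same programme were counted in 8 lists. Of 13 activity-induced transcription factors, all had positive log2 fold changes at 1 h, with a median of 2.34. Fos (5.20 ± 0.58, adjusted p = 0.028) and Egr1 (2.37 ± 0.29, adjusted p = 0.038) rose, where 0.0799% of all genes passed. At 8 h none of the 12 tested passed (0% of all genes), with Fosb at 1.82 (adjusted p = 0.21) and Fos at 2.15 (adjusted p = 0.23). At 36 h 0 of 13 passed (0.0252% of all genes) and the median was -0.32, with Egr1 at -0.66 and Egr2 at -1.46. At 120 h 0 of 13 passed (0.0563% of all genes), with Crem at -0.39 and Nr4a3 at -0.47. Among 13 other activity-induced effectors, Sik1, a kinase that restrains CREB-dependent transcription, rose at 1 h by 1.86 ± 0.14 (adjusted p = 0.004). Homer1, a postsynaptic scaffold, fell at 120 h by 0.59 ± 0.06 on the log2 scale (adjusted p = 0.025), where 0.0563% of all genes passed. In the fit of all 19 libraries 0 genes passed at 120 h, so the Homer1 call depends on the fit. General neuronal markers were also below the controls in the 120 h SE libraries, and their part in the Homer1 difference was not tested. None of these effectors passed at 8 h (0% of all genes), when 12 of 13 were positive. The prohormone convertase Pcsk1 then had 1.17 and the neurotrophin Bdnf 0.88 (adjusted p = 0.43 and 0.47). None passed at 36 h either (0.0252% of all genes), with the GTPase Rheb at -0.20 and Homer1 at -0.22.

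Partners of the individual genes did not pass at any time, where 0.0799%, 0%, 0.0252% and 0.0563% of all genes passed at the successive times. Of 8 AMPA receptor and pentraxin partner genes tested, 2 were positive at each of the 4 times. The auxiliary subunits Cacng3 and Cacng2 had log2 fold changes of -0.30 and 0.15 at 1 h and -0.75 and -0.36 at 8 h. The receptor subunits Gria1 and Gria3 had -0.20 and -0.17 at 36 h, and Cacng2 and Gria1 had -0.18 and -0.17 at 120 h. The 9 endocytic and regulatory partners of Arc had medians between -0.06 and 0.02, led by the endophilin Sh3gl1 (-0.23) and the adaptor subunit Ap2a1 (-0.10) at 1 h and the ligase Rnf216 (0.34) and Sh3gl3 (-0.35) at 8 h. They were led by Sh3gl3 (-0.15) and the dynamin Dnm1 (-0.10) at 36 h and Dnm1 (-0.18) and Ap2a1 (-0.09) at 120 h. Among 5 NPAS relatives and ARNT partners, Npas2 and Npas3 had -0.04 and -0.05 at 1 h and -0.40 and -0.67 at 8 h, Npas2 and Arnt had 0.24 and 0.06 at 36 h, and Npas1 and Arnt2 had -0.19 and -0.08 at 120 h.

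Of 7 Polo-like kinases and Plk2 substrates, Plk4 and Rapgef2 had -0.49 and 0.13 at 1 h, and the Ras regulator Rasgrf1 had -0.24 at 8 h. Rasgrf1 and Plk5 had -0.20 and 0.31 at 36 h, and Sipa1l1 had -0.17 at 120 h. Of 11 non-clustered protocadherins and Pcdh8 partners, Pcdh18 and Pcdh9 had -0.35 and -0.11 at 1 h. Cdh2 (N-cadherin) and Pcdh10 had -0.45 and -0.33 at 8 h, Pcdh18 and Pcdh7 had 0.38 and 0.24 at 36 h, and Pcdh1 and Pcdh19 had -0.24 and -0.36 at 120 h. Of 19 other RGS and Gq pathway genes, Rgs9 and Rgs14 had -0.59 and -0.17 at 1 h and Rgs8 and Rgs5 had 0.46 and -0.34 at 8 h. Rgs8 had -0.28 at 36 h, with the muscarinic receptor Chrm3 at -0.36, and Rgs8 had -0.33 at 120 h, with the G protein Gnaq at -0.24. The smallest adjusted p among all these partners was 0.16, for Rgs8 at 120 h.

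Across the 19 libraries, the genes whose log2 CPM was most like that of each member were listed as a description, since the libraries share batches and times. Npas4 was nearest to Junb, Ier2 and Egr1 (Pearson r of 0.98, 0.98 and 0.96), all immediate early genes, and Arc to Nr4a1, Dusp5 and Gadd45b (0.93, 0.92 and 0.90). Plk2 was nearest to Dusp6, Cyr61 and 1700016P03Rik (0.91, 0.88 and 0.87), and Pcdh8 to Spry2, Ccl2 and Pim1 (0.89, 0.80 and 0.78). Nptx2 was nearest to Slc7a6, Pi4kb and Lman2 (0.79, 0.79 and 0.78), and Nptxr to Syt17, E030013I19Rik and Nnat (0.91, 0.82 and 0.80). Nptx1 was nearest to Prkag2, Kdm2b and Evc2 (0.77, 0.75 and 0.75), and Nrn1 to Gabra2, Calr and Gm14295 (0.85, 0.85 and 0.83). Rgs2 was nearest to Smndc1, Tpm4 and Plk2 (0.81, 0.79 and 0.79), and Rgs4 to Exoc3, Vip and Lix1 (0.79, 0.73 and 0.72).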

How the data were processed

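The authors purified poly(A) RNA from left hippocampi, made stranded libraries and used HISAT2 2.1.0 for alignment (NCBIM37) and HTSeq for counting reads in genes. The deposited mRNA table holds whole-number counts without normalization. Positions are from GENCODE M1 on NCBIM37, which named 33068 of 43629 identifiers; the rest held 0.869 to 4.70% of counts. The release behind the counts may be a later one. The 10 genes and all lists were chosen with earlier results of these data known.

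Genes were filtered with filterByExpr, scaled by TMM and tested with edgeR 4.0.16 (quasi-likelihood test, R 4.3.3), SE against control at each time, with Benjamini-Hochberg adjustment across every gene in the fit (threshold 0.05). The change of the SE effect between times was tested in a fit of 19 libraries and 7 groups (17415 genes). Log2 CPM used a prior count of 1. Alternatives were edgeR's likelihood ratio test, DESeq2 1.42.0, RLE factors, no filter, all libraries in 1 fit, a replicate block, batch, choroid plexus marker score or Xist level as a covariate, and leaving out each library. The procedure was tested on simulated data. Intervals are at 95%.

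All 10 genes were described at every time. Of each partner list, genes past the threshold are named, or else the 2 with the smallest p (1 gene is not reported here), and for each gene the 3 with the highest Pearson r over 19 libraries. Of 14 cell type marker lists, those whose summed levels did not overlap between SE and control are given. The small RNA counts were not used.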

Additional observations from a re-analysis of the deposited data

Results flagged for a closer look

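The effect of SE differed between times for Npas4 and Nptx2 by the quasi-likelihood test of the difference in 19 libraries. For Npas4 the SE effect at 8 h minus that at 1 h was -5.02 on the log2 scale (adjusted p = 0.036). For Nptx2 the SE effect at 8 h minus that at 1 h was 1.55 (adjusted p = 0.036), and that at 36 h minus that at 8 h was -1.83 (adjusted p = 0.012). The calls at 8 h minus 1 h were sensitive to single libraries. With each library left out, Npas4 passed in 8 of 19 fits and Nptx2 in 9. The Nptx2 call at 36 h minus 8 h held in 17 of 19 fits. Part of the Nptx2 differences lay between control groups, with means of 26.1, 17.9 and 36.2 CPM in the 1 h, 8 h and shared controls.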

How the results depend on the processing

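At 1 h, 0 of the 10 genes passed edgeR's quasi-likelihood test (13 of 16264 genes). There, 2 passed the likelihood ratio test (Arc, Npas4, of 69 genes in all) and 2 DESeq2 (Npas4, Plk2, of 63). In the fit of all 19 libraries 2 passed (Arc, Npas4, of 55) and in the fit with the choroid plexus score 1 (Npas4, of 10). Without a filter on low counts 4 passed (Arc, Npas4, Plk2, Pcdh8, of 328). The fit without a filter also gave extremely small p-values at 1 h and in the time contrasts, for a cause that was not tested. At 8 h, against 0, 1 passed the likelihood ratio test (Nptx2, of 89 genes in all) and 1 DESeq2 (Nptx2, of 95). In the fit of all libraries (423 genes) and the fit without a filter (343 genes), 2 passed each (Nptx2, Pcdh8). With batch 3 passed (Nptx2, Arc, Pcdh8), in a fit in which 2111 of 15610 genes passed. At 36 h, against 0, 1 passed without a filter (Arc, of 141 genes in all). At 120 h, against 0, 1 passed the likelihood ratio test (Nptx2, of 76 genes in all) and 1 DESeq2 (Nptx2, of 144). In the time contrasts, against 2, 1 and 0, the fit without a filter passed 3, 3 and 2, where 480, 746 and 155 of all genes passed. Leaving out a library gave 0 to 2 genes at 1 h, 0 to 3 at 8 h, 0 at 36 h and 120 h, 0 to 2 from 1 h to 8 h, 0 to 1 from 8 h to 36 h and 0 from 36 h to 120 h. From 1 h to 8 h, Npas4 was lost without 1 h SE replicate 2 or 3, 1 h control 1, 8 h SE 1 or 2, 8 h control 2 or 3, 36 h SE 1 or 2, 120 h SE 1 or shared control 3. Nptx2 was lost without 1 h SE 1 or 3, 1 h control 1, 8 h SE 1, 8 h control 2, 36 h SE 1, 120 h SE 1 or 2, or shared control 1 or 3. The causes were not tested.

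With the replicate number as a block, 2 of the 10 genes passed at 1 h, 1 at 8 h and 0 later. Over all genes, 42, 31, 12 and 1 passed at the 4 times with the block. Same-numbered libraries did not deviate together in every pair (correlations of -0.09 and 0.05 at 1 h, -0.02 and -0.01 at 8 h, 0.07, -0.03 and -0.06 at 36 h, and 0.15, -0.17 and -0.01 at 120 h), so the numbers were not taken as pairs.

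Over all genes, 13, 0, 4 and 9 passed at the 4 times, against 69, 89, 125 and 76 by the likelihood ratio test, 63, 95, 101 and 144 by DESeq2, 328, 343, 141 and 52 without a filter and 55, 423, 10 and 0 in the fit of all libraries. With batch, 2111 passed at 8 h. With the choroid plexus score 45 passed at 36 h, in a fit whose SE effect rests mainly on SE replicate 3, and 2 at 120 h. With Xist 0 and 1 passed at these times. Without SE replicates 1 and 2, 61 passed at 36 h. Where a group was left with a single library, as here, that library was assumed to vary like the other groups. Leaving out a library gave 3 to 53, 0 to 2065, 0 to 469 and 1 to 3. In the time contrasts, 26, 25 and 14 passed, against 128, 198 and 42 by the likelihood ratio test, 480, 746 and 155 without a filter, and 5 and 8 in the last 2 with the choroid plexus score. Leaving out a library gave 0 to 1183, 0 to 1976 and 4 to 21.

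Log2 fold changes that changed sign lay near 0 under the main fit or had wide intervals. Nptxr at 1 h was 0.055 with the block. Nrn1 at 8 h was 0.0081 with the block, 0.064 with the choroid plexus score and 0.0042 with batch. Nrn1 at 36 h was -0.0037 by DESeq2, -0.0036 with RLE factors, -0.0046 without a filter, -0.074 with Xist, -0.016 without SE replicates 1 and 2 and -0.017 in the fit of all libraries. At 36 h, Nptx2 was 0.21 and Plk2 0.15 with the choroid plexus score, and 0.19 and 0.13 without SE replicates 1 and 2. Both of these fits rest mainly or only on SE replicate 3. Nptxr at 36 h was -0.022 with Xist. At 120 h with Xist, Arc was -0.065 and Npas4 -0.17. Leaving out a library moved Nptx2 between -0.10 and 0.66, Nptxr between -0.13 and 0.10 and Rgs4 between -0.019 and 0.34 at 1 h, and Nrn1 between -0.14 and 0.081 at 8 h. At 36 h it moved Npas4 between -1.04 and 0.032, Nptx2 between -0.15 and 0.10, Nptxr between -0.066 and 0.14 and Nrn1 between -0.025 and 0.036. At 120 h it moved Arc between -0.24 and 0.54, Npas4 between -0.070 and 1.03 and Pcdh8 between -0.087 and 0.063.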
